A study of Mus musculus with 7 samples.

Results

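The phagocyte NADPH oxidase was followed through 6 genes of mouse bone marrow: Cybb, Cyba, Ncf1, Ncf4, Rac2 and Hvcn1. They were chosen by name as parts of this enzyme, with earlier results of these data known. Each was matched to the count table through its Ensembl identifier. All 6 of the 6 were found among its 49315 genes, and all 6 passed the filter on low counts with 17920 genes tested in all. Poly(A) RNA was sequenced from the bone marrow of chow-fed mice after hindlimb ischemia, in which the blood supply of a hind leg is cut. The 3 flox libraries carry the floxed microRNA cluster (miR-181a2b2flox/flox), and the 4 KO libraries carry miR-181a2b2-/-. The titles call the flox libraries WT. The labels name no Cre driver, strain, sex or age, and do not say whether each library is a separate animal. P-values therefore measure the spread between these libraries only, which may be technical.

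The oxidase is the enzyme that lets neutrophils, monocytes and macrophages turn oxygen into superoxide when they take up microbes. Its membrane core is a heterodimer of gp91phox (Cybb, also called NOX2, which carries the electrons from NADPH) and p22phox (Cyba, which stabilises it). In a resting cell cytosolic subunits, among them the organiser p47phox (Ncf1) and p40phox (Ncf4), wait in the cytosol, and they join the core together with the small GTPase Rac2 when the cell is activated. Hvcn1 is a voltage-gated proton channel that carries protons out to balance the electrons the oxidase moves; it is also known in B cells. Loss of a core or cytosolic phox subunit is known to cause chronic granulomatous disease.

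The deleted cluster encodes miR-181a-2 and miR-181b-2, and a further copy of each lies on chromosome 1. Their mature guide strands are printed because a target site would have to pair with them. The seed, bases 2 to 8, is in capitals and is identical in both.
mmu-miR-181a-5p: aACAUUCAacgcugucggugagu
mmu-miR-181b-5p: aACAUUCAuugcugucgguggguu
The sequences are from RefSeq on GRCm38.p6, where the deleted copies lie at chr2:38852741-38852763 and chr2:38853845-38853868 on the plus strand. The match to this seed, TGAATGT on the transcript strand, was looked for in each gene's longest annotated 3' UTR. None of the 6 genes held it, in 3' UTRs of 2965 bases (Cybb), 102 bases (Cyba), 1690 bases (Ncf1), 189 bases (Ncf4), 2321 bases (Rac2) and 1625 bases (Hvcn1). Among the 14275 tested genes with an annotated 3' UTR, 17.8% held at least 1 match. No match says only that these letters are not in these 3' UTRs.

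The promoter table held 3 of the 6 genes, Cybb, Cyba and Ncf1; Ncf4, Rac2 and Hvcn1 had no entry. Each window covers 250 bases before and 50 bases after the annotated start, from RefSeq on GRCm38.p6. The core of the PU.1 motif, GAGGAA, was searched on both strands, since PU.1 is the myeloid factor known to act on Cybb and Ncf1. The Cybb window held 1 match, 9 bases after the RefSeq start. This start lies within the Cybb gene span given below (chrX:9435252-9487771, minus strand) and not at its 5' end. The match lies on the strand opposite to the printed one, so its reverse complement TTCCTC is in capitals here. The Cyba and Ncf1 windows held 0. In all, 28.3% of the 32851 promoter windows hold this core. A C/EBP core, TTGCNNAA, was in 0 of the 3 windows and in 10.8% of all windows. The Cybb window, chrX:9469275-9469574 on the minus strand, and the Ncf1 window, chr5:134229576-134229875 on the minus strand, are printed as those of the catalytic subunit and of the gene with the lowest p of the 6.
Cybb: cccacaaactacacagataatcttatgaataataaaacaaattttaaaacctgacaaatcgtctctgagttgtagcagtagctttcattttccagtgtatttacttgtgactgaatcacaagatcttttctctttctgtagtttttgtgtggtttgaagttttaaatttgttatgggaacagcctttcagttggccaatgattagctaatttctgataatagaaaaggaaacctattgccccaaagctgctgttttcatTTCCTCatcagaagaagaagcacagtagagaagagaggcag
Ncf1: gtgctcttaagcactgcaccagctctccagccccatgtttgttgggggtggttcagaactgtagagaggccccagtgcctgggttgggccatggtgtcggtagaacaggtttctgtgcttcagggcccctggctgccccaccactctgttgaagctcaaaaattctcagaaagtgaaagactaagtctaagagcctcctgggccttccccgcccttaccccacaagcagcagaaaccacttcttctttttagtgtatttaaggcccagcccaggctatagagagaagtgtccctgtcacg

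Levels are given in counts per 1000000 (CPM) on library sizes scaled by the trimmed mean of M-values (TMM). The table holds 43110251 to 51688514 counts per library, and the 6 genes had from 4017 counts (Hvcn1, flox 3) to 77451 counts (Cybb, flox 2), so counting error is small beside the spread between libraries. Flox 1 stood apart on the first principal component of all tested genes (-58.7), where flox 2 scored -14.2, flox 3 scored -5.48 and the KO libraries scored 16.6 to 23.2. Neutrophil secondary granule genes summed to at least 17634 CPM in every library, and erythroid genes to at least 34524 CPM. The extraction text of the labels, however, names white adipose tissue. In edgeR's quasi-likelihood fit, 26 genes passed a Benjamini-Hochberg adjusted p of 0.05, which is 0.145% of those tested; 24 were higher in KO (0.134%) and 2 lower (0.0112%).

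In KO marrow, mean levels of the 5 oxidase subunits were 77.7% to 86.3% of those in flox, and the proton channel gene Hvcn1 stood at 109%. The fitted log2 fold changes, KO minus flox, ran from -0.36 to -0.21 in the 5 subunits, and in Cybb, Cyba, Ncf1 and Ncf4 every KO library lay below every flox library. None of the 6 passed the edgeR test adjusted over all genes (0 of 6, beside 0.145% of all genes), so these differences are values and not calls. At an unadjusted p of 0.05, 4 of the 6 passed, all lower in KO, against 8.17% of all tested genes lower in KO at that level. Groups that did not overlap, with KO lower, were found in 4 of the 6 and in 7.41% of all tested genes; groups apart with KO higher were found in 0 of the 6 and in 6.22% of all genes. The median log2 fold change over the 6 was -0.26, against -0.0080 over all genes tested, of which 51.9% were below 0. The 6 genes were chosen with earlier results of these data known, so these comparisons with all genes are descriptions only. Marrow is a mixture of cells, and in bulk samples fewer phagocytes and less RNA per phagocyte cannot be told apart. Markers of neutrophil secondary granules had lower values in KO in 8 of 8 genes (median -0.39) and monocyte markers in 8 of 8 (median -0.14), and the part of this in the oxidase values was not tested.

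**Figure D1:**
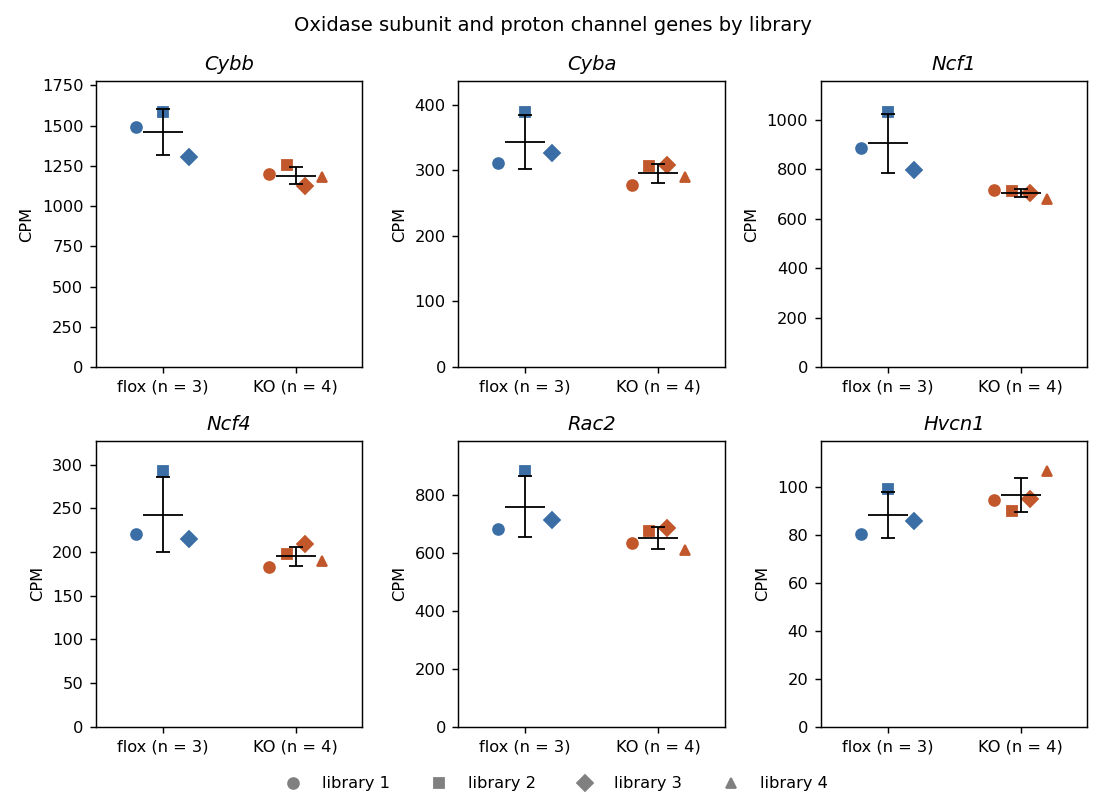
Level of each gene in CPM (vertical axes, from 0) in the 3 flox and 4 KO libraries; each symbol is a library, the horizontal bar is the mean and the whiskers are 1 SD. Ncf1 stood between 679 and 714 CPM in KO and between 797 and 1033 CPM in flox, and flox 2 was the highest library for 5 of the 6 genes.

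The membrane core was described first. Cybb (ENSMUSG00000015340, protein-coding, chrX:9435252-9487771 on GRCm38, as for all gene positions here, minus strand) was at 1489.6, 1587 and 1303 CPM in flox 1, 2 and 3. In KO 1 to 4 it was at 1197, 1258, 1123 and 1184 CPM. The groups did not overlap, and flox 2 was highest and KO 3 lowest. The flox mean was 1459.9 ± 144 CPM (SD, n = 3), the KO mean was 1190.4 ± 55.3 CPM (SD, n = 4), and KO minus flox was -0.29 in log2 units (SE 0.09, 95% interval -0.50 to -0.09, edgeR adjusted p = 0.232). Permuting the 7 libraries exactly, in 35 arrangements and two-sided, gave p = 0.0286, the smallest this design allows.

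Cyba (ENSMUSG00000006519, protein-coding, chr8:122424776-122432930, minus strand) encodes the p22phox partner, without which gp91phox is known to be unstable. It was at 311, 389 and 327 CPM in flox 1, 2 and 3, and at 278, 306, 308 and 290.5 CPM in KO 1 to 4. The groups were separate but close, with flox 1 just above KO 3. On the log2 scale KO minus flox was -0.21 (SE 0.09, 95% interval -0.41 to -0.01, edgeR adjusted p = 0.33), with an exact permutation p = 0.0286. On library sizes without TMM scaling, the Cyba difference in mean log2 CPM was -0.18 and the exact permutation p was 0.0571, above the threshold.

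Among the cytosolic subunits, the organiser gene Ncf1 (ENSMUSG00000015950, protein-coding, chr5:134220053-134229625, minus strand) had the lowest p of the 6. It was at 886, 1033 and 797 CPM in flox 1, 2 and 3. The KO libraries lay close together, at 714, 713, 706 and 679 CPM, below every flox library. Means were 905 ± 119 CPM (SD, n = 3) and 703 ± 16.5 CPM (SD, n = 4), and KO minus flox was -0.36 in log2 units (SE 0.09, 95% interval -0.57 to -0.15, edgeR adjusted p = 0.197; exact permutation p = 0.0286). DESeq2 called Ncf1 (-0.35, adjusted p = 0.0352), the 1 member it called, beside 2.21% of the genes it adjusted, and 0.799% that were called lower; limma-voom called none of the 6. Ncf1 shares 408 exon bases with Gtf2ird2 on the opposite strand. The sources used here do not state whether the counting used strand, so reads there cannot be told apart; Gtf2ird2 had 41.6 ± 3.04 CPM in flox and 36.2 ± 1.61 CPM in KO.

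Ncf4 (ENSMUSG00000071715, protein-coding, chr15:78244801-78262580, plus strand) encodes p40phox, whose PX domain binds a phosphoinositide of the phagosome. It was at 221, 292 and 215 CPM in flox 1, 2 and 3, and at 183, 197, 209 and 190.2 CPM in KO 1 to 4. The groups did not overlap, and flox 2 stood well above the other libraries. KO minus flox came to -0.32 on the log2 scale (SE 0.11, 95% interval -0.56 to -0.07, edgeR adjusted p = 0.267; exact permutation p = 0.0286).

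Rac2 (ENSMUSG00000033220, protein-coding, chr15:78559167-78572783, minus strand), the GTPase of blood cells that switches the complex on, was at 683, 881 and 713 CPM in flox 1, 2 and 3. In KO 1 to 4 it was at 632, 676, 687 and 609 CPM. Here the groups overlapped, since KO 3 lay above flox 1. The fitted log2 difference was -0.22 (SE 0.10, edgeR adjusted p = 0.362), with a 95% interval from -0.45 to 0.0035; the exact permutation p was 0.0571.

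Hvcn1 (ENSMUSG00000064267, protein-coding, chr5:122206804-122242297, plus strand) was the 1 member with a higher mean in KO. It was at 80.2, 99.1 and 85.8 CPM in flox 1, 2 and 3, and at 94.6, 89.9, 95.03 and 107 CPM in KO 1 to 4. The groups overlapped, with flox 1 lowest and KO 4 highest. The fitted log2 difference was 0.13 (SE 0.09, 95% interval -0.08 to 0.33, edgeR adjusted p = 0.586; exact permutation p = 0.257). Hvcn1 shares 1574 of its exon bases with Tctn1 on the opposite strand, which had 15.9 ± 2.22 CPM in flox and 17.6 ± 0.796 CPM in KO.

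Flox 2 weighed on all 6 values. Without it the log2 fold change was -0.21 for Cybb, -0.094 for Cyba, -0.24 for Ncf1, -0.14 for Ncf4, -0.085 for Rac2 and 0.23 for Hvcn1, and without flox 1 it was 0.057 for Hvcn1. The signs were kept in all 7 fits that left out 1 library. The number of the 6 genes whose groups did not overlap, with KO lower, was 4 or 5 when 1 library was left out. Among all genes 9.42% to 13.9% then met this, and 11.6% without flox 2. Groups already apart stay apart when a library is removed, so this number could not fall below 4 and does not test the weight of flox 2. Flox 2 was the highest library for 5 of the 6 genes, and it was also highest in the summed markers of primary granules (2942 CPM), secondary granules (32053 CPM), late neutrophils (33167 CPM) and monocytes (2913 CPM).

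**Figure D2:**
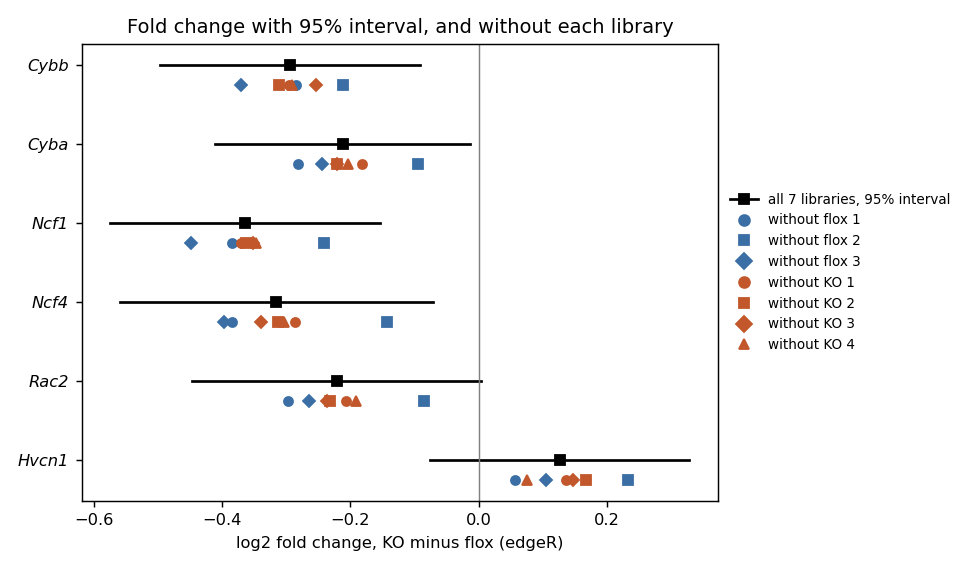
Log2 fold change, KO minus flox, of each gene (horizontal axis) with its 95% interval from edgeR (black), and the value without each library in turn (coloured symbols, blue for flox and orange for KO). The intervals of Cybb, Cyba, Ncf1 and Ncf4 lie below 0, and leaving out flox 2 moves each of the 5 subunits nearest to 0.

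Whether the subunits differed from each other in their change was asked with the level of each gene as a percentage of Cybb in the same library, which does not depend on the scaling between libraries. Ncf4 stood at 16.6% ± 1.80 of Cybb (SD, n = 3) in flox and 16.4% ± 1.51 (SD, n = 4) in KO. Ncf1 stood at 61.9% ± 2.88 and 59.2% ± 2.77, Rac2 at 52.03% ± 5.36 and 54.8% ± 4.35, and Cyba at 23.5% ± 2.28 and 24.9% ± 1.82. For these 4 genes the groups overlapped, and the exact two-sided permutation p ran from 0.257 to 0.886. A p of this size does not show that they changed alike.

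Hvcn1 stood at 5.39%, 6.25% and 6.59% of Cybb in flox 1, 2 and 3, and at 7.90%, 7.14%, 8.46% and 9.0035% in KO 1 to 4, so every KO library lay above every flox library. The difference in mean log2 ratio was 0.42, with an exact permutation p = 0.0571 and 0.286 after Benjamini-Hochberg adjustment over the 5 ratios. It was 0.34 to 0.48 when 1 library was left out. The difference between Hvcn1 and Cybb was therefore not past the threshold.

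**Figure D3:**
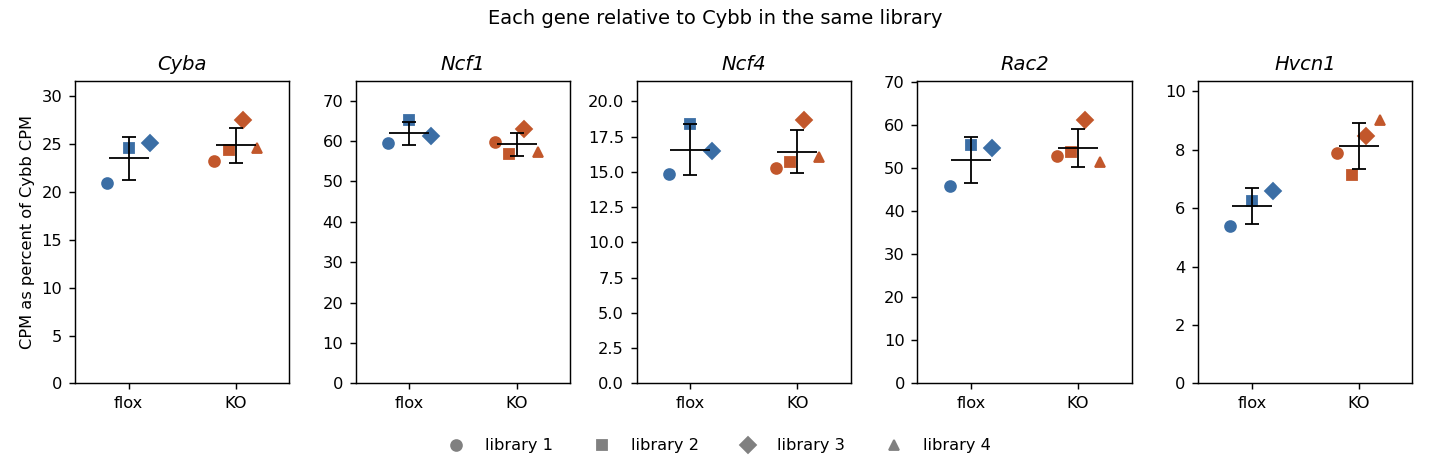
CPM of each gene as a percentage of Cybb CPM in the same library (vertical axes, from 0), with the mean and SD of the 3 flox and 4 KO libraries. Hvcn1 spanned 5.39% to 6.59% in the flox libraries and 7.14% to 9.0035% in the KO libraries, while the groups of the other 4 genes overlapped.

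Levels between genes were compared per kilobase of exon union. Cyba was highest, at 329.7 ± 39.8 CPM per kb in flox and 285 ± 13.9 CPM per kb in KO, and it lay above Cybb in 7 of 7 libraries. Cybb (251 ± 24.9 and 205 ± 9.52 CPM per kb), Ncf1 (247 ± 32.6 and 192 ± 4.51) and Rac2 (245 ± 34.3 and 209.8 ± 11.8) followed and lay within their spread of each other in flox. Cybb was above Rac2 in 3 of 7 libraries and Ncf1 above Rac2 in 1 of 7. Ncf4 came next, at 120.1 ± 21.4 and 96.5 ± 5.54 CPM per kb, below Rac2 in 7 of 7 libraries. Hvcn1 was the lowest of the 6 in 7 of 7 libraries, at 24.8 ± 2.73 and 27.1 ± 1.99 CPM per kb. The exon union counts every annotated exon, also of rare transcripts, so it can understate genes with long rare exons.

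Of the other parts of the complex, the list held 8 names, of which 7 were in the table and tested. Cybc1, the chaperone of the gp91phox and p22phox heterodimer, had 79.3 ± 7.18 CPM in flox and 82.2 ± 5.44 CPM in KO (0.051, SE 0.08, adjusted p = 0.848).

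Rac1, the broadly expressed relative of Rac2, was at 285, 284 and 282 CPM in flox and at 271, 279.8, 241 and 224 CPM in KO. Every KO library lay below every flox library, at a fitted difference of -0.16 in log2 units (SE 0.09, edgeR adjusted p = 0.439). Per kilobase Rac2 was 3.38 to 4.49 times Rac1 across the 7 libraries; the sources used here do not state how reads shared by these similar genes were counted. The endoplasmic reticulum chaperone Hsp90b1 gave -0.28 (SE 0.14, adjusted p = 0.4). Of the 7 genes tested, 4 were lower and 3 higher in KO with a median of -0.097, none passed in edgeR, 0 had an unadjusted p under 0.05, beside 14.1% of all genes in either direction, and DESeq2 called 0. The median was -0.041 without flox 2 and -0.049 without KO 3.

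The other NADPH oxidase enzymes were low beside Cybb. Of 9 genes for these enzymes and their partners, 3 passed the filter: Nox1 (0.418 CPM in flox and 0.448 CPM in KO), Duox2 (0.561 and 0.743 CPM) and Noxo1 (0.344 and 0.456 CPM). Nox3 had 0 counts in every library. None of the 3 passed in edgeR, with 0 of 3 at an unadjusted p under 0.05 and 0 called by DESeq2.

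Receptors that start or prime the burst were lower in KO in 16 of 16 tested genes, with a median of -0.25 against -0.0080 over all genes. None passed in edgeR; 6 of 16 had an unadjusted p under 0.05, beside 14.1% of all genes, and DESeq2 called 1, Itgam. Flox had 351 ± 40.6 CPM of Itgam, the alpha chain of complement receptor 3, and KO had 272 ± 19.6 CPM (-0.37, SE 0.09, edgeR adjusted p = 0.186). Fcgr3, a receptor for antibody-coated particles, gave -0.27 (SE 0.09), and Csf2rb, the shared chain of the GM-CSF receptor, gave -0.33 (SE 0.13). Without flox 2 the median of the list was -0.13.

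Enzymes of NADPH supply were lower in 5 of 7 tested genes, with a median of -0.22. None passed in edgeR, 4 of 7 had an unadjusted p under 0.05, beside 14.1% of all genes, and DESeq2 called 1, Pgd. Pgd, the second NADPH-forming enzyme of the pentose phosphate pathway, had a flox mean of 609 ± 78.0 CPM and a KO mean of 473 ± 21.7 CPM (-0.36, SE 0.09, edgeR adjusted p = 0.195). G6pdx, which opens that pathway, was at 422 ± 88.1 and 324 ± 25.9 CPM (-0.38, SE 0.13), and the NAD kinase gene Nadk gave -0.22 (SE 0.08).

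Rac regulators, 13 tested, had 9 lower and 4 higher with a median of -0.16, and -0.053 without flox 2. Those with the lowest p were Vav2 (0.36, SE 0.11), an exchange factor with a higher mean in KO, Vav3 (-0.28, SE 0.09), an exchange factor, and Arhgdib (-0.31, SE 0.12), which holds Rac in the cytosol. Of 19 kinases and lipid enzymes linked to activation of the oxidase, 17 were lower. Their median was -0.082 (-0.046 without flox 2 and -0.13 without flox 1). The lowest p was in Mapk3 (-0.27, SE 0.08), Pak1 (-0.33, SE 0.11) and Irak4 (-0.28, SE 0.10). None of either list passed in edgeR; 5 of 13 and 4 of 19 had an unadjusted p under 0.05, beside 14.1% of all genes, and DESeq2 called 0 in both.

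Downstream of superoxide, 9 of 14 enzymes were lower and 5 higher, with a median of -0.066, and -0.028 without flox 2. Mpo, the peroxidase that makes hypochlorous acid, gave -0.58 (SE 0.18), Gsr, which regenerates glutathione, -0.28 (SE 0.11), and the peroxiredoxin gene Prdx6 -0.18 (SE 0.07). Among 12 transcription factors known to act on subunit genes, 6 were lower and 6 higher, with a median of -0.078. That median was -0.041 without flox 1, -0.030 without flox 2, -0.13 without flox 3, -0.16 without KO 1 and -0.0065 without KO 3. Hoxa9 gave -0.78 (SE 0.23) at 5.22 ± 0.797 CPM in flox, Cebpe, a factor of late granulocyte maturation, -0.42 (SE 0.14), and Spi1, which encodes PU.1, -0.26 (SE 0.09). None passed in edgeR, with edgeR adjusted p from 0.223 to 0.302 for the 6 genes named here; 4 of 14 and 3 of 12 had an unadjusted p under 0.05, beside 14.1% of all genes, and DESeq2 called 0.

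**Figure D4:**
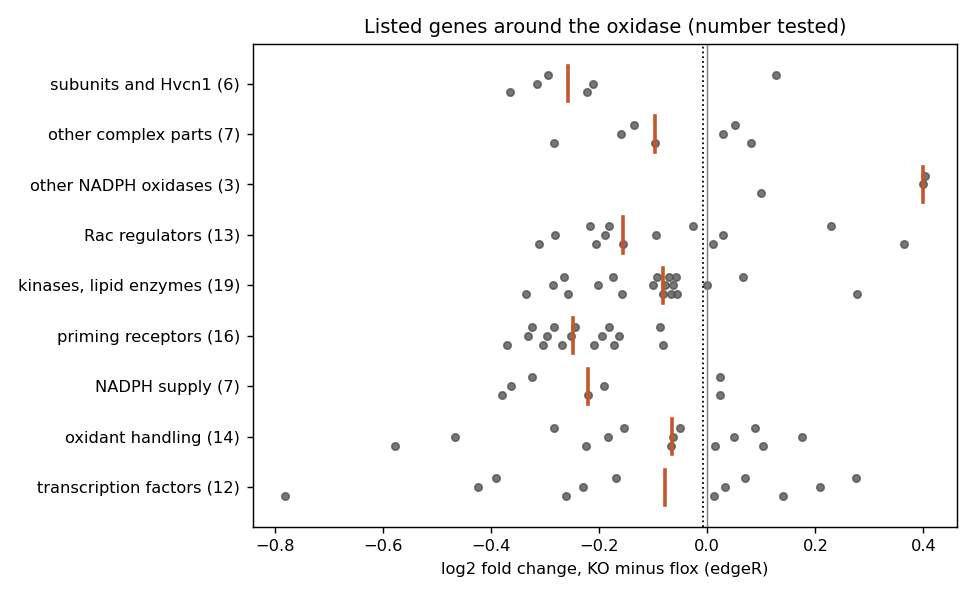
Log2 fold change, KO minus flox, of each tested gene (points) in the lists around the oxidase; the vertical bars are list medians and the dotted line is the median of all genes tested, -0.0080. Point height within a row has no meaning, and all 16 priming receptors lie below 0.

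Neutrophil and monocyte markers had mostly lower values in KO. The 7 primary granule genes of promyelocytes summed to 1578 to 2942 CPM in flox and 1164 to 1586 CPM in KO (6 of 7 lower, median -0.63). The 8 secondary granule genes summed to 22504 to 32053 CPM and 17634 to 22709 CPM (8 of 8 lower, median -0.39). Late neutrophil genes summed to 23730.0 to 33167 CPM and 19246 to 23896 CPM (9 of 10 lower, median -0.18), and monocyte genes to 2389 to 2913 CPM and 2059 to 2333 CPM (8 of 8 lower, median -0.14).

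The summed level of the 6 genes of interest was 3440 to 4282 CPM in flox and 3059 to 3241 CPM in KO. Lymphoid markers had higher values in KO: the 12 B lineage genes summed to 81.3, 537 and 851 CPM in flox 1, 2 and 3 and to 887 to 1160.0 CPM in KO (12 of 12 higher, median 1.04). Hvcn1, also known in B cells, was lowest in flox 1, where the B lineage sum was lowest. It was second highest of the 7 libraries in flox 2, where that sum lay below every KO library. The part of B cells in the Hvcn1 values was not tested. The erythroid sum was 57683, 34524 and 47536 CPM in flox 1, 2 and 3 and 54909 to 72638 CPM in KO. The groups overlapped, and flox 2 was the lowest of the 7 libraries. None of these lists had a marker at 0 in every library.

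**Figure D5:**
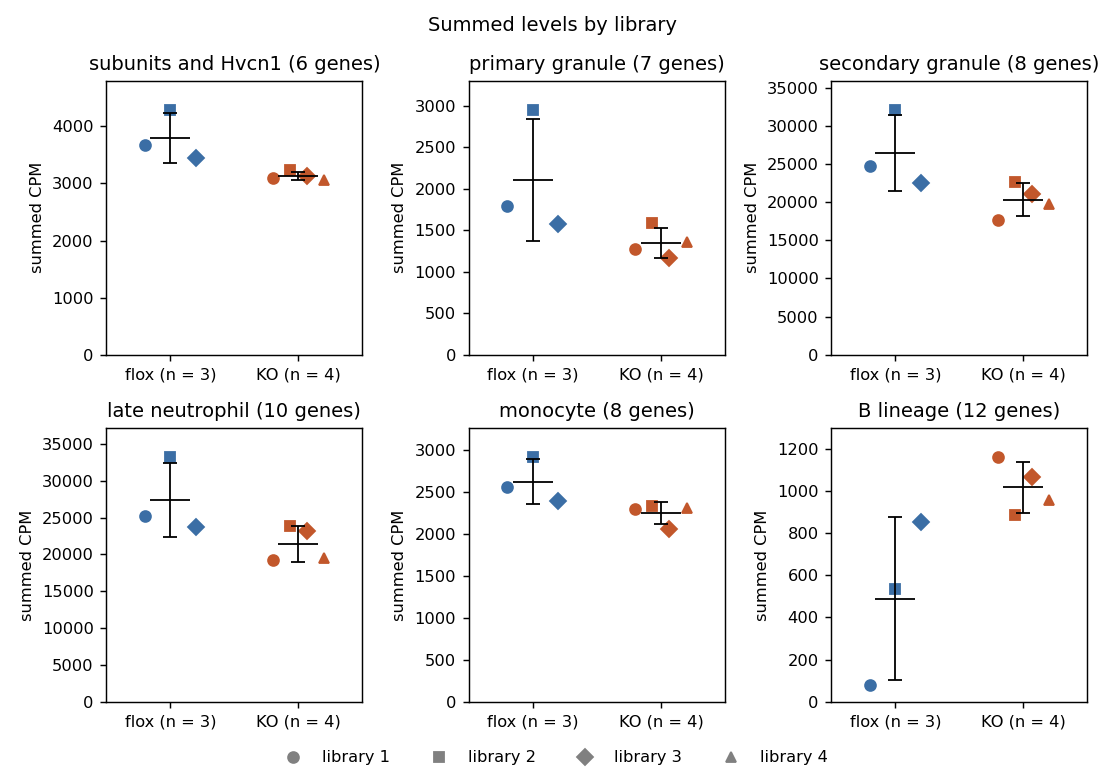
Summed CPM by library (vertical axes, from 0) of the 6 genes of interest and of 5 marker lists, with the mean and SD of the 3 flox and 4 KO libraries. Flox 2 is the highest library in the first 5 panels, and flox 1 is the lowest in the B lineage panel at 81.3 CPM.

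The genes most like each member were those with the highest Pearson correlation of log2 CPM over the 7 libraries, among 9269 other named protein-coding genes whose mean log2 CPM reached 3. These are descriptions over 7 libraries that share the group difference and the high values of flox 2. Cybb was nearest to Dtx4 (r = 0.993), Prom1 (0.992) and Emilin1 (0.989), and Cyba to Ltbr (0.995), Bin3 (0.991) and Wfdc17 (0.989). Ncf1 was nearest to Slc25a12 (0.990), Myo1f (0.987), a myosin of blood cells, and Pgd (0.986). Among the 3 genes nearest to Ncf4 were Zdhhc16 (0.991) and Arhgap1 (0.988). Rac2 was nearest to Csf2rb (0.995), Mrpl58 (0.994) and Coro1a (0.994), an actin-binding protein of leukocytes. Hvcn1 had lower values and other genes, Lars2 (0.940), Itpr2 (0.935) and Man2a1 (0.934), all 3 with a positive fitted fold change, of 0.87, 0.11 and 0.048.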

How the data were processed

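Raw read counts per Ensembl gene were deposited by the authors in 1 table with a column for each of the 7 libraries; 0 columns were left unmapped. Per the submitters' processing notes, the tools were Trimmomatic 0.36 (read trimming), STAR 2.5.2b (alignment, build GRCm38) and Subread 1.5.2 (featureCounts). Not given in the sources used here: annotation release, strand setting, multi-mapping reads.

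Annotation was taken from GENCODE M21, in which 49056 of the 49315 identifiers matched. Counts were filtered with filterByExpr (minimum count 10), scaled with TMM and fitted over all genes with robust glmQLFit and glmQLFTest (edgeR 4.0.16, R 4.3.3), two-sided, and called at a Benjamini-Hochberg adjusted p of 0.05; limma 3.58.1 and DESeq2 1.42.0 were alternatives. The edgeR script was tested on simulated data. Standard errors follow from the F statistic. Log2 CPM used a prior count of 2. Single genes and ratios were also compared by exact permutation over 35 splits. No pair of libraries in a group agreed within sampling noise (chi-square per degree of freedom 21.2 or more), so none was merged as a library deposited again; this does not show that they are separate animals.

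The 6 genes and all lists were chosen with earlier results of these data known. Of each pathway list the 3 genes with the lowest p are named, with Cybc1 and Rac1 always, except that single-gene results of 2 genes are not reported here; Nox3 and Tctn1 and Gtf2ird2 were added after their values were seen. The lists were other complex parts, other NADPH oxidases, Rac regulators, kinases and lipid enzymes, priming receptors, NADPH supply, oxidant handling and transcription factors, and markers of 15 cell or tissue types. Lists are described by counts and medians.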

Additional observations from a re-analysis of the deposited data

Results flagged for a closer look

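Each quantity was checked for a KO library far from the other 3 by Dixon's test; the 3 flox libraries are too few for it. Chance marks about 1 group in 20, and 4 of 51 quantities were marked, none of them a member. Hsp90b1 in KO 3 stood at 381 CPM, against 491 to 504 CPM in the other KO libraries. Irak4 in KO 1 stood at 42.9 CPM, against 35.99 to 37.02 CPM. The summed monocyte markers in KO 3 stood at 2059 CPM, against 2294 to 2333 CPM, and the summed erythroid markers in KO 3 at 72638 CPM, against 54909 to 56007 CPM.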

How the results depend on the processing

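The fold changes of Cybb, Cyba, Ncf1, Ncf4, Rac2 and Hvcn1 kept their sign under all 17 alternatives, and none passed the threshold except Ncf1 with DESeq2 (-0.35, adjusted p = 0.0352). The edgeR adjusted p of Ncf1 ran from 0.11 to 0.381 when 1 library was left out. The number of genes called, 26, was 365 with DESeq2, 112 without a filter on low counts and 16 with non-robust dispersion, and 2 to 14 when 1 library was left out. With the replicate number as a block, over libraries 1 to 3, it was 4, and Ncf1 gave -0.34. Same-numbered libraries did not deviate together (correlations -0.022, 0.077 and 0.023). These values show no pairing by number, but they cannot exclude a weak one. On library size alone the difference of Cyba was -0.18 (exact permutation p = 0.0571). When 1 library was left out, the log2 ratio to Cybb changed sign for Ncf4 (-0.012 with all libraries, -0.090 to 0.067) and Rac2 (0.077, -0.012 to 0.13), and medians ran from -0.18 to -0.053 for Rac regulators, -0.31 to -0.13 for priming receptors and -0.16 to -0.0065 for transcription factors; the cause was not tested. Leaving out a library lowers the number of samples, and the exact test then cannot reach 0.05. The counts of members without a library were chosen after seeing the data; at an unadjusted p of 0.05 they ran from 3 to 5 of 6, beside 10.4% to 15.6% of all genes. Depth does not limit the 6 genes, each with at least 4017 counts per library, whereas the 3 other NADPH oxidase genes tested were under 1 CPM, with SE from 0.26 to 0.37.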

Other observations

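Macrophages and eosinophils also carry the oxidase. The 8 resident macrophage markers summed to 957, 471 and 619 CPM in flox 1, 2 and 3 and to 591 to 739 CPM in KO; 7 were lower and 1 higher, at a median of -0.036 on the log2 scale. The 4 eosinophil markers summed to 1251 to 1442 CPM in flox and 571 to 1418 CPM in KO, with 2 lower and 2 higher. The 6 megakaryocyte markers were lower in 6 of 6 (median -0.65). Their sums overlapped, at 803, 418 and 497 CPM in flox 1, 2 and 3 and 317 to 474 CPM in KO. The 8 markers of T and NK cells, in which Rac2 is also known, were higher in 8 of 8 (median 0.27). They summed to 56.2 to 62.0 CPM in flox and 71.1 to 81.9 CPM in KO. Of marrow stroma markers 8 of 8 were lower (median -0.79) and of endothelial markers 4 of 5 (-0.57). Pecam1, the endothelial marker with the highest level, was higher in KO (mean 58.2 CPM in flox and 66.9 CPM in KO). The endothelial sums overlapped, at 81.4 to 93.9 CPM in flox and 82.5 to 91.8 CPM in KO. Higher in KO were 5 of 6 dendritic cell (0.12), 10 of 10 erythroid (0.28) and 5 of 5 tested skeletal muscle markers (0.51), with overlapping sums in each. None of these lists had a member past the edgeR threshold. All 8 intestinal markers passed that threshold and were higher in KO (median 1.20), beside 0.134% of all genes tested. They summed to 33.7 to 34.7 CPM in flox and 79.0 to 84.4 CPM in KO. This list too was chosen with earlier results of these data known.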
